A study of Mus musculus with 7 samples.

Results

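The genes that encode the subunits of the mitochondrial respiratory chain and of the ATP synthase were examined in the livers of AL and CR mice. Members were taken by gene symbol among the protein-coding genes, namely the mt-Nd, mt-Co, mt-Cytb and mt-Atp genes of the mitochondrial DNA, the nuclear Nduf, Sdh, Uqcr, Cyc1, Cycs and Cox4 to Cox8 genes, and the Atp5 genes. This gave 109 genes of the 54532 measured, of which 13 were mitochondrially encoded and 96 nuclear-encoded. The livers came from male C57BL/6 mice of 30 weeks of age. In the AL group 3 mice fed ad libitum on a normal diet. In the CR group 4 mice had been on calorie restriction for 18 weeks, from the age of 12 weeks. Their intake was lowered in weekly steps until 30% restriction was reached. CR mice lived in single cages and received their food once a day, whereas AL mice shared cages with free access to food, and housing and meal timing therefore cannot be told apart from the amount eaten. All livers were taken in the afternoon, and each mouse gave 1 library of RNA selected on poly-T beads.

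The respiratory chain carries electrons from NADH and succinate to oxygen through 4 membrane complexes and pumps protons across the inner mitochondrial membrane, and the ATP synthase, complex V, uses the return of these protons to make ATP. Complexes I, III, IV and V are mosaics. A few core subunits are encoded in the mitochondrial DNA, which is transcribed inside the organelle from long precursors, and the others are transcribed in the nucleus and imported as proteins, whereas complex II is wholly nuclear-encoded. In the liver the chain takes the electrons released by fatty acid oxidation and by the citric acid cycle, and its ATP supports gluconeogenesis and urea synthesis.

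Expression is given in FPKM (fragments for each kilobase of a gene after scaling for sequencing depth), and changes are differences of log2(FPKM + 0.1) between CR and AL livers, tested with limma over 12699 genes. A gene was said to have risen or fallen when its adjusted p was under 0.05. The libraries held 15641740 to 19900806 reads in genes, and no pair of them was a duplicate. Markers of hepatocytes checked the tissue. The AL livers summed to 20416 to 35342 FPKM and the CR livers to 46262 to 50565 FPKM, of which albumin held most, and Alb was the only marker of 6 that rose. Of 5 red blood cell markers the 4 globin genes rose and Alas2 fell, with a sum of 152 to 198 FPKM in AL and 251 to 397 FPKM in CR livers. Endothelial markers summed to 37.8 to 42.2 FPKM in AL and 17.2 to 34.8 FPKM in CR livers, with 0 of 5 past the test, and adipocyte markers to 4.87 to 8.02 and 1.44 to 2.27 FPKM, with 1 of 2 tested past it. Marco rose among 5 Kupffer cell markers and Col1a1 fell among 5 stellate cell markers, and the sums of both lists overlapped between the groups. Whether these markers had a part in the results was not tested, and in such bulk samples fewer cells of a type and less RNA per cell cannot be told apart.

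Respiratory chain and ATP synthase genes of every complex rose in CR livers, and no member fell. Of the 109 members 102 were expressed enough to be tested, and 37 of these rose (36.3%), whereas 11.3% of all genes tested rose and 10.2% fell. The median log2 fold change was 0.32 over the members tested and -0.0019 over all genes tested. In 50 members every CR liver lay above every AL liver, against 17.6% of all genes, and in 2 members, Ndufb3 and Ndufaf1, every CR liver lay below, against 16.8% of all genes. The plot of members by library shows CR replicates 1 to 4 above the AL mean in most rows, with a set of nuclear-encoded subunits that were low in CR replicates 1 and 2.

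**Figure D1:**
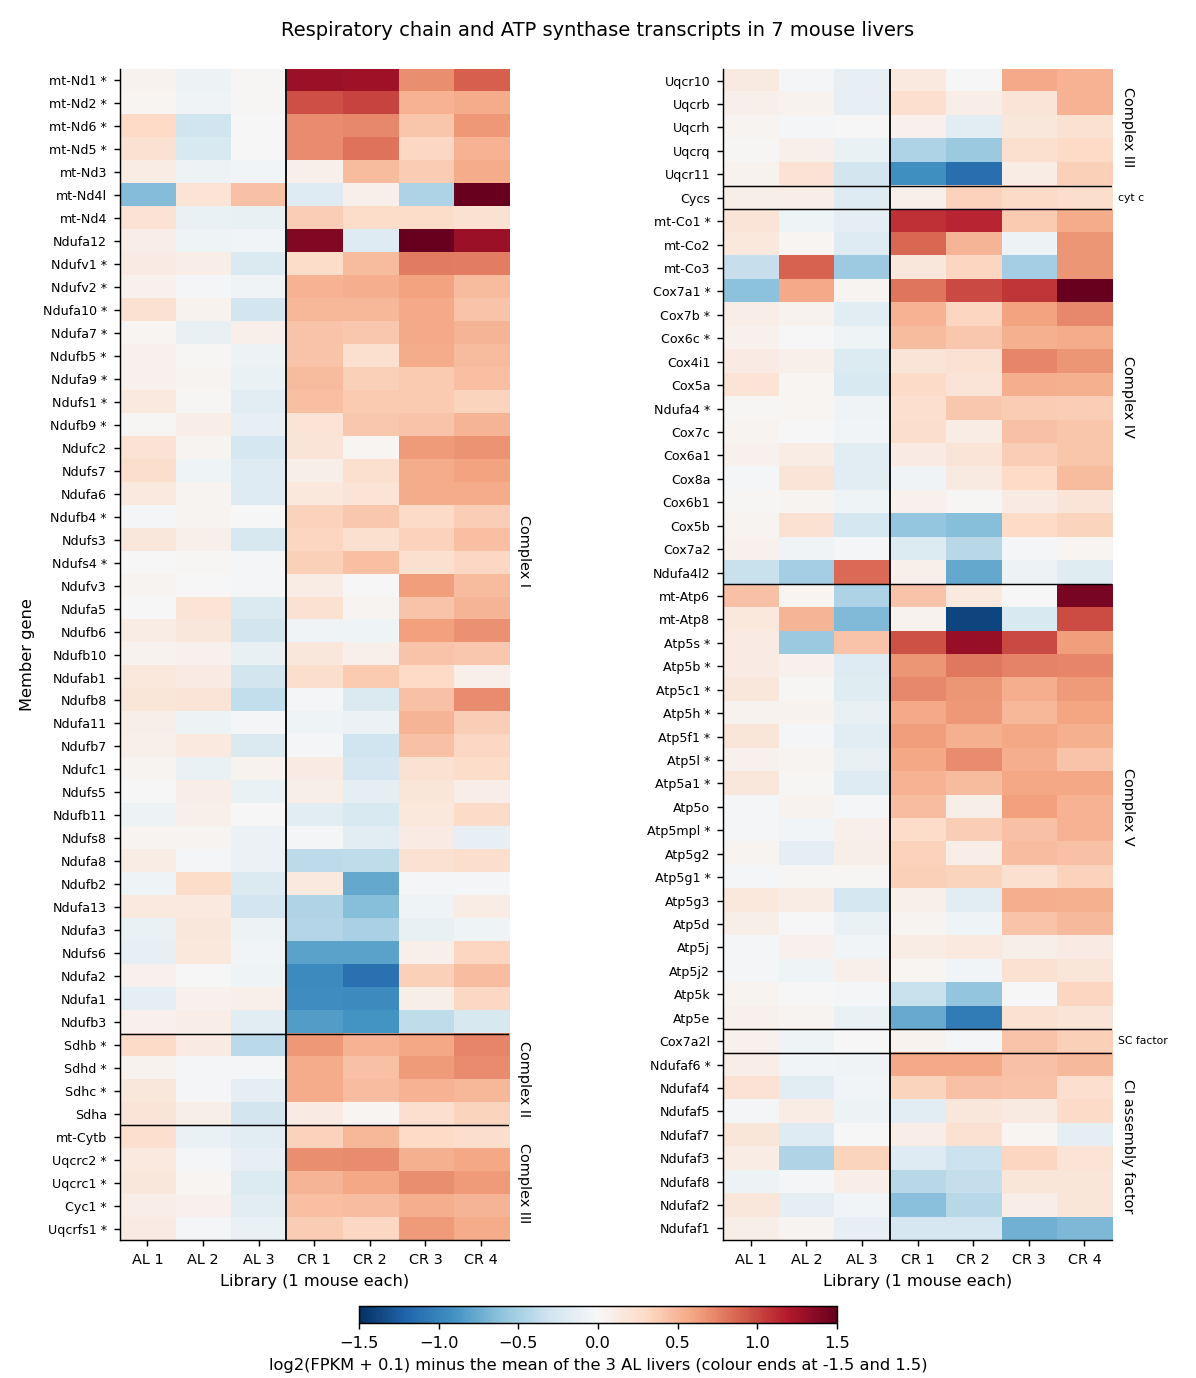
Level of the tested members, 1 of the 102 not shown (rows, grouped by complex), in each of the 7 livers (columns), as log2(FPKM + 0.1) minus the mean of the AL livers, red above and blue below it. An asterisk marks members that rose, and blue cells in the CR columns lie mostly in CR replicates 1 and 2.

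The number of members that rose depended on the libraries. It was 12 without AL replicate 2, 22 without AL replicate 1 and without CR replicate 4, 24 without AL replicate 3 and without CR replicate 2, 25 without CR replicate 1 and 26 without CR replicate 3. Without AL replicate 2 members rose in 11.8% and all genes in 5.40% of those tested, and without AL replicate 3 in 23.5% and 12.2%. Each of the 37 kept a positive log2 fold change in all alternatives that could test it, and 11 of them passed in all 7 fits that left out 1 library, namely mt-Nd1, Ndufv2, Ndufaf6, Sdhd, Uqcrc1, Uqcrc2, Cox6c, Atp5b, Atp5c1, Atp5h and Atp5l. Only mt-Nd1, Uqcrc2 and Atp5b passed in all 19 alternatives. When libraries were scaled without the mitochondrial genes, 45 members rose and 0 fell, and the split of all genes moved from 1433 risen and 1291 fallen to 1818 and 875.

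Of the 13 mitochondrially encoded subunits 5 rose, all of them among the 7 that were the most abundant members. These were mt-Nd1, mt-Nd2, mt-Nd5 and mt-Nd6, which form part of the proton-pumping membrane arm of complex I, and mt-Co1, the subunit of complex IV that reduces oxygen. The median log2 fold change of the 13 was 0.49. In 7 of them the CR livers lay wholly above the AL livers.

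mt-Nd1, which lies next to the site where ubiquinone binds, showed the highest change among them. Its level was 4341, 3969.9 and 4206 FPKM in the AL livers and 10253, 10050.1, 6781 and 7759.7 FPKM in the CR livers, each in the order of the replicate numbers. CR replicates 1 and 2 were the highest, and the groups did not overlap. The log2 fold change was 1.04 ± 0.18 (SE), with an adjusted p of 0.00674 in limma. mt-Nd2 stood at 4709, 4423 and 4676 FPKM in AL livers and at 9019.9, 9265, 6600.1 and 6770.0 FPKM in CR livers, and it rose by 0.76 ± 0.17 (SE) on the log2 scale (limma, adjusted p = 0.0164). For mt-Co1 the values were 13121, 10952 and 10409 FPKM in AL and 24409.7, 25339, 15071 and 16758 FPKM in CR livers, with CR replicates 1 and 2 again far above CR replicates 3 and 4, and a log2 fold change of 0.80 ± 0.22 (SE) (limma, adjusted p = 0.0401). mt-Nd5 and mt-Nd6, encoded on opposite strands with overlapping ends, rose by 0.59 ± 0.17 (SE) and 0.62 ± 0.17 (SE), with limma adjusted p of 0.0446 and 0.0342. The livers stood in the same order in both genes. Strand was not stated for the counting in the sources used here, so that reads of opposite strands cannot be told apart there. Whether mt-Nd6 changed apart from mt-Nd5 was not tested. mt-Nd1 passed in all 7 fits that left out 1 library. mt-Nd2 lost the call without AL replicate 1 and without AL replicate 2 (limma, adjusted p up to 0.071), mt-Nd6 kept it in 2 of the 7 fits, those without AL replicate 1 and without CR replicate 3, and mt-Co1 and mt-Nd5 kept it in 1 each, without CR replicate 3.

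mt-Cytb, the subunit of complex III that holds the quinone sites, was at 7595, 5947 and 5729 FPKM in AL and 8117, 9024, 7815 and 7631 FPKM in CR livers. The groups did not overlap, with a gap of small size between AL replicate 1 and CR replicate 4, and the log2 fold change of 0.35 ± 0.15 (SE) did not pass (limma, adjusted p = 0.13). mt-Nd4, a proton-pumping subunit of complex I, was likewise higher in each CR liver, at 2170.0 to 2734 FPKM in AL livers and 2755 to 3034 FPKM in CR livers, with a log2 fold change of 0.29 and a limma adjusted p of 0.153.

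**Figure D2:**
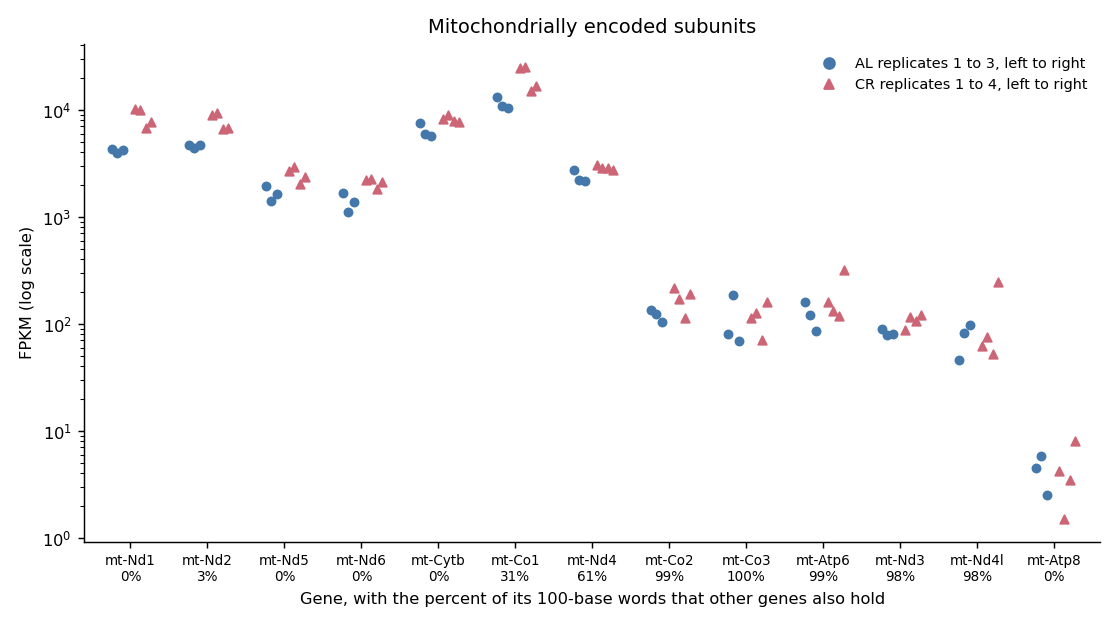
FPKM of the 13 mitochondrially encoded members on a log axis in the 3 AL livers (circles) and 4 CR livers (triangles), each with the percent of its 100-base words that other genes also hold. Genes with nearly all words shared lie near 100 FPKM, below the others except mt-Atp8, and the groups are apart in mt-Nd1, mt-Nd2, mt-Nd5, mt-Nd6, mt-Cytb, mt-Co1 and mt-Nd4.

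The other 6 mitochondrially encoded genes had low and scattered values. A nuclear copy of a stretch of the mitochondrial DNA lies on chromosome 1, where the table lists 7 unprocessed pseudogenes on the minus strand within chr1:24611535-24616197 of GRCm38. Of the 100-base words of mt-Co2, mt-Co3, mt-Atp6, mt-Nd3 and mt-Nd4l, 97.6% to 99.9% also occur in these pseudogenes. Counting any other gene, the share was 60.8% for mt-Nd4, 30.8% for mt-Co1 and at most 3.19% for mt-Nd1, mt-Nd2, mt-Nd5, mt-Nd6 and mt-Cytb. The 5 genes with nearly all words shared had mean levels of 94.6 to 156 FPKM, whereas the 5 genes with few or none shared had 1786 to 7408 FPKM. The sequences of mt-Nd4l and of its copy are shown because they are alike over the whole length of the copy. Both run 5′ to 3′ on the coding strand, from GENCODE M21 on GRCm38, and capitals mark bases of mt-Nd4l (chrMT:9877-10173, plus strand) that are missing at the end of the copy Gm10222 (chr1:24612407-24612700, minus strand).
mt-Nd4l: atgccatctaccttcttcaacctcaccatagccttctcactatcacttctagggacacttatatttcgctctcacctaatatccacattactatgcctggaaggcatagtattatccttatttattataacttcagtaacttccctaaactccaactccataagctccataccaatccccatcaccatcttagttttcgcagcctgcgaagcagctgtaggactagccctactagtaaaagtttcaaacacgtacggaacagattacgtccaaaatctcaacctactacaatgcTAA
Gm10222: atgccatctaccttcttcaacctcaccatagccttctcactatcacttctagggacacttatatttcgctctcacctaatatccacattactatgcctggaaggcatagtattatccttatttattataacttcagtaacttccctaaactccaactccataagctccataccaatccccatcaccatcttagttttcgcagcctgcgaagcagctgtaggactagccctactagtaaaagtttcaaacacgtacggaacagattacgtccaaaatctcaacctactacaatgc
The 294 aligned bases were identical, and mt-Nd3 differed from its copy Gm28438 by 1 mismatch in 345 aligned bases.

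The pseudogenes of the copy carried reads as well. Their summed level was 409, 405 and 334 FPKM in the AL livers, whereas CR replicates 1 to 4 had 581, 526, 380 and 563 FPKM, so that CR replicate 3 lay among the AL livers. The sources used here do not state how reads that fit both places were counted, and the levels of these 5 genes are therefore uncertain. None of the 5 passed the test. mt-Co2, which takes electrons from cytochrome c, was at 133, 122 and 105 FPKM in AL and 218, 170.3, 114 and 189 FPKM in CR livers and overlapped only through CR replicate 3 (log2 fold change 0.49 ± 0.22 (SE), limma adjusted p = 0.152). mt-Co3 and mt-Atp6, which forms the proton channel of the ATP synthase, had log2 fold changes of 0.16 ± 0.39 (SE) and 0.50 ± 0.36 (SE). mt-Nd3 and mt-Nd4l had 0.37 ± 0.14 (SE) and 0.30 ± 0.53 (SE). mt-Atp8, a short gene that shares no 100-base word with another, had a mean of 4.29 FPKM and 15.7 reads per library, and its log2 fold change was -0.14 ± 0.52 (SE), the only negative value among the 13.

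Both classes of members took a larger share of the reads in every CR liver, but their balance differed among the CR livers. The mitochondrially encoded members held 4.74%, 4.07% and 3.83% of all reads in the AL livers, and CR replicates 1 to 4 had 7.66%, 7.88%, 5.38% and 5.99%. The nuclear-encoded members held 1.09%, 1.08% and 0.899% in AL and 1.23%, 1.21%, 1.37% and 1.42% in CR livers. Neither share overlapped between the groups, and the CR livers stood in another order, with CR replicates 1 and 2 high in the mitochondrially encoded and low in the nuclear-encoded share. The median FPKM of the nuclear-encoded members did overlap, at 40.5 to 49.4 FPKM in AL and 45.9 to 58.2 FPKM in CR livers. Their mean log2 level overlapped by a small margin, through CR replicate 2. The ratio of summed FPKM, mitochondrially encoded over nuclear-encoded, was 6.06, 5.15 and 5.83 in AL livers. It was 9.32 and 9.86 in CR replicates 1 and 2 and 5.67 and 6.02 in CR replicates 3 and 4, so that the latter lay within the range of the AL livers. A mean over genes, which weights low genes as much as high ones, gave a difference of 3.78 to 3.86 log2 units between the classes in AL livers and of 4.22, 4.22, 3.60 and 4.18 in CR replicates 1 to 4. With mt-Nd1, mt-Nd2, mt-Nd5, mt-Nd6 and mt-Cytb, of whose 100-base words under 5% are in other genes, as the only mitochondrially encoded members the same difference was 6.48, 6.19 and 6.44 in AL livers and 7.04, 7.17, 6.43 and 6.54 in CR replicates 1 to 4, with CR replicate 3 within the range of the AL livers and CR replicate 4 just above it. The median log2 fold change was 0.49 for mitochondrially encoded and 0.31 for nuclear-encoded members, of which 5 of 13 and 32 of 89 rose (38.5% and 36.0%). As summaries over chosen members these values carry no test.

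**Figure D3:**
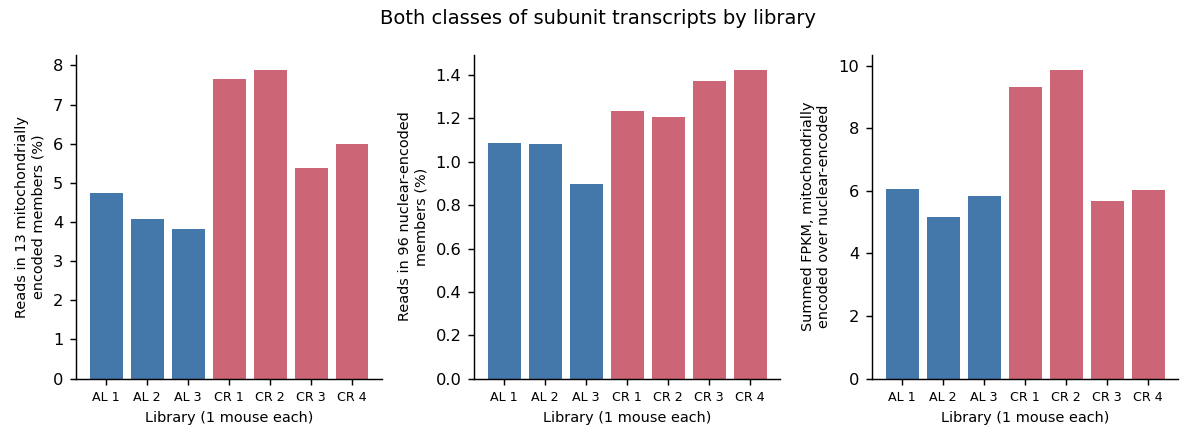
Percent of reads in the mitochondrially encoded members (left) and in the nuclear-encoded members (middle), and the ratio of their summed FPKM (right), 1 bar for each AL liver (blue) and CR liver (red). Both shares are higher in all CR livers, and the ratio is above the AL range in CR replicates 1 and 2, at 9.32 and 9.86.

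Complex I oxidizes NADH and passes the electrons to ubiquinone. Of its 43 tested subunits 15 rose, the 4 mitochondrially encoded genes above and 11 of 36 nuclear-encoded genes (30.6%), with a median log2 fold change of 0.31 over the complex. Among the core subunits of the peripheral arm, where the electrons run, Ndufv1, Ndufv2 and Ndufs1 were among those that rose, and Ndufs3, Ndufs7 and Ndufs8 did not pass the test. Ndufv2, an iron-sulfur protein beside the NADH site, was at 35.7, 33.8 and 32.99 FPKM in AL and 49.1, 49.9, 51.9 and 47.3 FPKM in CR livers. The CR livers lay close together and far from the AL livers. Its log2 fold change was 0.53 ± 0.088 (SE) (limma, adjusted p = 0.00587), and it passed in all 7 fits that left out 1 library. Ndufv1, which binds NADH and flavin, stood at 42.9 to 54.3 FPKM in AL livers and 60.4 to 86.02 FPKM in CR livers and rose by 0.57 ± 0.16 (SE) on the log2 scale (limma, adjusted p = 0.0395), although only the fit without CR replicate 1 kept this call. Ndufs1, which holds several iron-sulfur clusters, rose by 0.40 ± 0.10 (SE), with a limma adjusted p of 0.03. It lost the call in 5 of the 7 fits, all but those without AL replicate 1 and without CR replicate 4.

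The accessory subunits of complex I, which surround the core, spread from positive to negative values. Ndufa7, Ndufa9, Ndufa10, Ndufb4, Ndufb5, Ndufb9 and Ndufs4 rose, with log2 fold changes from 0.34 in Ndufs4 to 0.50 in Ndufa10. Ndufa7 was at 33.2, 30.2 and 34.5 FPKM in AL and 43.9, 43.04, 48.2 and 46.6 FPKM in CR livers. All CR livers lay above all AL livers (log2 fold change 0.48 ± 0.10 (SE), limma adjusted p = 0.0125). Ndufa7 and Ndufa9 lost the call without AL replicate 2 (limma, highest adjusted p 0.0636 and 0.063), whereas the other 5 passed in at most 2 of the 7 fits.

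Ndufa12 had the highest log2 fold change of all members, 1.13 ± 0.45 (SE), and did not pass (limma, adjusted p = 0.117). Its level was 6.97, 6.19 and 6.30 FPKM in AL livers and 17.1, 5.65, 26.8 and 15.9 FPKM in CR livers. CR replicate 2 lay below the AL livers and the other CR livers far above them, and without CR replicate 2 the log2 fold change was 1.57 with a limma adjusted p of 0.00631. It also passed without CR replicates 1 and 2 (limma, adjusted p = 0.0186), and over the 19 alternatives the limma adjusted p reached 0.394. Of its 100-base words 11.4% are shared with the pseudogene Gm15920. At the other end Ndufb3, a membrane arm subunit at chr1:58586384-58595964 of GRCm38, was at 47.97, 49.1 and 40.6 FPKM in AL and 25.5, 24.6, 35.2 and 38.6 FPKM in CR livers. Each CR liver lay below each AL liver, lowest in CR replicates 1 and 2, but the log2 fold change of -0.59 ± 0.18 (SE) missed the threshold (limma, adjusted p = 0.0557). It passed in 4 of the 19 alternatives, with limma adjusted p of 0.0400 on recovered reads, 0.0468 among genes with at least 1 FPKM in every library, 0.0350 without CR replicate 4 and 0.0132 without CR replicates 3 and 4.

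Complex II, succinate dehydrogenase, feeds electrons from the citric acid cycle into the chain, and 3 of its 4 subunits rose. Sdhd, a membrane anchor, was at 135, 128 and 127 FPKM in AL and 191, 176, 203 and 212 FPKM in CR livers. The AL livers were nearly level, and the lowest CR liver, replicate 2, lay well above them. It rose by 0.59 ± 0.10 (SE) on the log2 scale (limma, adjusted p = 0.00802) and passed in all 7 fits without 1 library. Sdhc, the other anchor, ranged over 38.00 to 47.2 FPKM in AL livers and 58.1 to 61.7 FPKM in CR livers and rose by 0.51 ± 0.10 (SE) (limma, adjusted p = 0.0129), a call lost only without AL replicate 2 (limma, adjusted p = 0.0599). Sdhb, the iron-sulfur subunit, rose by 0.62 ± 0.17 (SE) (limma, adjusted p = 0.0359), with AL replicate 3 at 47.02 FPKM against 76.1 and 67.9 FPKM in the other AL livers and 89.7 to 104 FPKM in CR livers, and it passed only without AL replicate 1 and without AL replicate 3. Sdha, the flavoprotein that oxidizes succinate, was at 94.01 to 130.2 FPKM in AL livers and 117 to 144 FPKM in CR livers. Its groups overlapped, and its log2 fold change of 0.18 ± 0.14 (SE) did not pass (limma, adjusted p = 0.395).

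Complex III passes electrons from ubiquinol to cytochrome c, and its large nuclear subunits rose while its small subunits did not pass. Of 10 tested members 4 rose. Uqcrc2, a core protein encoded at chr7:120635176-120659524, was at 80.01, 70.7 and 66.1 FPKM in AL and 117, 118, 104 and 108 FPKM in CR livers. The groups were well apart, and the log2 fold change of 0.63 ± 0.11 (SE) passed in all 19 alternatives (limma, adjusted p = 0.007). Uqcrc1, the other core protein, rose by 0.61 ± 0.12 (SE) (limma, adjusted p = 0.0113), as did the subunits that carry the electrons, Cyc1, cytochrome c1, by 0.49 ± 0.10 (SE) (limma, adjusted p = 0.0147) and Uqcrfs1, the Rieske iron-sulfur protein, by 0.47 ± 0.12 (SE) (limma, adjusted p = 0.0312). Cyc1 lost its call without AL replicate 2 (limma, adjusted p = 0.0518), and Uqcrfs1 passed only without CR replicate 2. The small subunits Uqcr10, Uqcrb, Uqcrh, Uqcrq and Uqcr11 had log2 fold changes of 0.31, 0.27, 0.074, -0.12 and -0.39. Cycs, cytochrome c itself, was at 18.8 to 23.1 FPKM in AL livers and 22.7 to 27.3 FPKM in CR livers, and its log2 fold change of 0.24 ± 0.11 (SE) did not pass (limma, adjusted p = 0.174).

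Complex IV, cytochrome c oxidase, reduces oxygen, and 5 of its 16 tested members rose, mt-Co1 and the nuclear-encoded Cox6c, Cox7b, Cox7a1 and Ndufa4. Cox6c was at 40.99, 39.4 and 37.5 FPKM in AL and 54.5, 52.1, 56.8 and 57.6 FPKM in CR livers. The CR livers lay within a narrow band above the AL livers (log2 fold change 0.49 ± 0.090 (SE), limma adjusted p = 0.00902), and the call held in all 7 fits without 1 library. Cox6c overlaps Vps13b on the opposite strand over 5344 bases, and Vps13b had a mean of 3.15 FPKM. Cox7b and Ndufa4, which was first described in complex I and is now placed in complex IV, rose by 0.54 ± 0.13 (SE) and 0.35 ± 0.094 (SE) (limma, adjusted p = 0.0226 and 0.0342). Cox7b passed without CR replicates 1, 2 or 4 only, and Ndufa4 without CR replicate 1 only. Cox4i1, which closes the complex toward the matrix and is the usual marker of it, was at 173, 167 and 137 FPKM in AL and 181, 185, 263 and 252 FPKM in CR livers, higher in CR replicates 3 and 4 than in CR replicates 1 and 2. Its groups did not overlap, yet the log2 fold change of 0.45 ± 0.17 (SE) did not pass (limma, adjusted p = 0.104). Cox6a1, Cox8a and Cox6b1, the other abundant nuclear subunits, had log2 fold changes of 0.28, 0.21 and 0.10, and the negative values of the complex were those of Ndufa4l2, Cox7a2 and Cox5b.

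Several subunits of complex IV have a second gene that is used in muscle, lung or testis. Of these isoforms Cox4i2, Cox6a2, Cox6b2, Cox7b2, Cox8b and Cox8c stayed under the minimum for testing, at no more than 0.386 FPKM in any liver. They and a second record of Atp5o, listed at 0 in all livers, are the 7 members not tested. Cox7a1, the heart and skeletal muscle isoform of Cox7a2, was low but measurable, at 0.574, 1.43 and 0.959 FPKM in AL and 1.69, 1.94, 2.07 and 2.99 FPKM in CR livers. All CR livers lay above all AL livers, and the log2 fold change of 1.11 ± 0.30 (SE) was the highest among members that rose (limma, adjusted p = 0.0379). The call passed only without AL replicate 2, with limma adjusted p of 0.0328 to 0.103 over the 7 fits. It was also lost with limma-voom on the recovered reads. Cox7a1 made up 0.502% to 1.35% of the summed FPKM of Cox7a1 and Cox7a2 in the AL group against 1.77% to 2.62% in the CR group, and Cox7a2 itself was at 105 to 114 FPKM in AL livers and 81.6 to 111 FPKM in CR livers. Of 7 markers of muscle and brown fat 0 were tested. Ckm, Mb, Myh1 and Tnnt3 were at 0 in all 7 livers, and the sum of the list was 0.152 to 2.31 FPKM in AL and 0 to 0.173 FPKM in CR livers, most of it Cidea. Ndufa4l2, the paralogue of Ndufa4, was at 0.484 to 1.41 FPKM in AL livers and 0.391 to 0.782 FPKM in CR livers with a log2 fold change of -0.23 ± 0.38 (SE) that did not pass (limma, adjusted p = 0.699).

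Complex V, the ATP synthase, had 9 of 19 tested members that rose and a median log2 fold change of 0.40. The catalytic head rose in its large subunits. Atp5b, the catalytic beta subunit at chr10:128083273-128090391, was at 269, 259 and 216 FPKM in AL and 391, 427, 413 and 409 FPKM in CR livers. The lowest CR liver lay far above the highest AL liver, and the log2 fold change of 0.73 ± 0.11 (SE) passed in all 19 alternatives (limma, adjusted p = 0.00482). Atp5a1, the alpha subunit that alternates with beta in the head, was at 321, 289.7 and 249.5 FPKM in AL and 411, 398, 428 and 427 FPKM in CR livers. It rose by 0.54 ± 0.12 (SE) (limma, adjusted p = 0.0164), and the call was lost without AL replicate 2 (limma, adjusted p = 0.0637). Atp5c1, the gamma subunit that turns inside the head, rose by 0.64 ± 0.11 (SE) (limma, adjusted p = 0.00824), from 85.03 to 109 FPKM in AL livers to 141 to 159.6 FPKM in CR livers. The other subunits of the head, Atp5d, delta, and Atp5e, epsilon, did not pass, with log2 fold changes of 0.22 ± 0.16 (SE) and -0.34 ± 0.32 (SE).

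In the stalk and membrane part of the ATP synthase the pattern was mixed. Atp5h and Atp5f1 of the peripheral stalk rose, at 70.7 to 79.6 FPKM in AL livers and 108 to 119.7 FPKM in CR livers for Atp5h, with log2 fold changes of 0.57 ± 0.10 (SE) and 0.57 ± 0.11 (SE) (limma, adjusted p = 0.00657 and 0.0103). Atp5h and the small membrane subunit Atp5l, which rose by 0.56 ± 0.10 (SE) (limma, adjusted p = 0.00855), passed in all 7 fits without 1 library, and Atp5f1 in all but that without AL replicate 2 (limma, adjusted p = 0.0509). Atp5o, which joins stalk and head, lay higher in each CR liver with a log2 fold change of 0.42 ± 0.14 (SE) that did not pass (limma, adjusted p = 0.063), and Atp5j of the same stalk had 0.12 ± 0.084 (SE). Atp5s, coupling factor B, a low transcript at 2.23, 1.36 and 2.77 FPKM in AL and 4.03, 5.18, 4.15 and 3.21 FPKM in CR livers, rose by 0.97 ± 0.25 (SE) (limma, adjusted p = 0.0325). Its highest AL liver was close to its lowest CR liver, and the call held only without AL replicate 3 and without CR replicate 4. Atp5mpl, a small membrane subunit, rose by 0.40 ± 0.10 (SE) (limma, adjusted p = 0.0262), held only without AL replicate 3 and without CR replicate 1, and Atp5j2 and Atp5k had 0.10 and -0.15.

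The c ring, the rotor that carries protons, is built from 1 mature protein encoded by Atp5g1, Atp5g2 and Atp5g3. Atp5g1 was at 19.8, 20.4 and 20.5 FPKM in AL and 25.9, 25.6, 23.95 and 25.8 FPKM in CR livers. It rose by 0.32 ± 0.083 (SE) (limma, adjusted p = 0.0323), with a narrow spread in both groups, and the call held only without AL replicate 3 and without CR replicate 3. Atp5g2 and Atp5g3, at higher levels, had log2 fold changes of 0.33 ± 0.12 (SE) and 0.25 ± 0.21 (SE) that did not pass (limma, adjusted p = 0.0882 and 0.429). The share of Atp5g1 in the summed FPKM of the 3 genes was 10.02% to 12.1% in AL and 9.26% to 14.1% in CR livers, so that the shares overlapped.

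**Figure D4:**
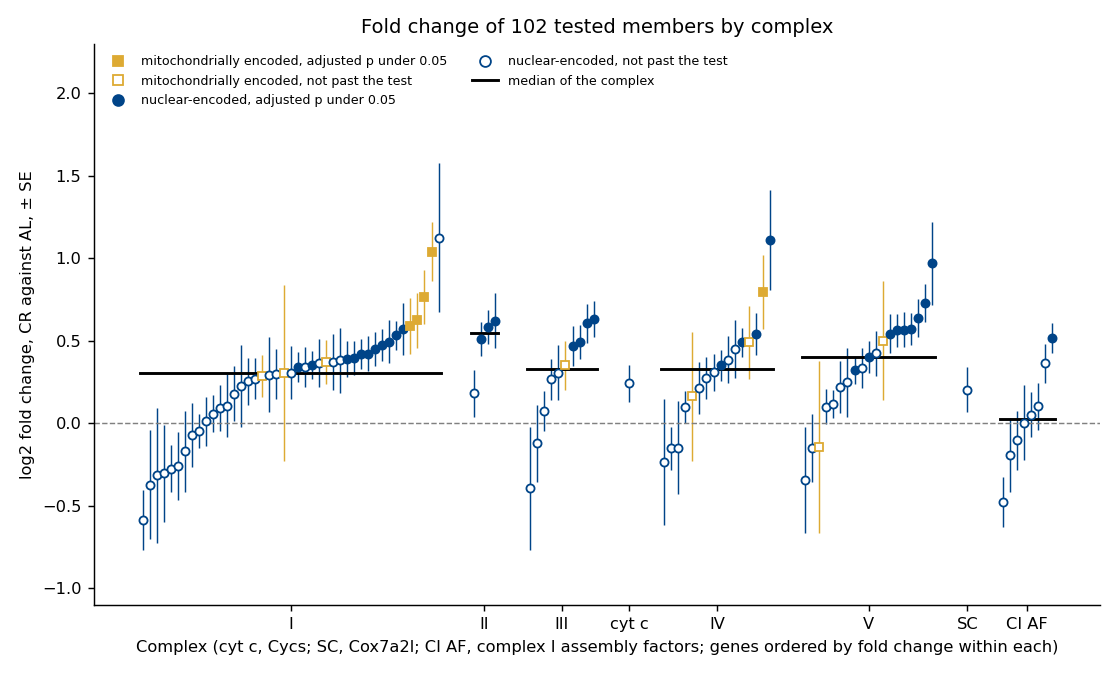
Log2 fold change of CR against AL with its SE for each of the 102 tested members, ordered within each complex, squares for mitochondrially encoded and circles for nuclear-encoded genes, filled where the adjusted p was under 0.05. The black line is the median of the complex, which is 0.31 for complex I, 0.55 for complex II, 0.33 for complexes III and IV, 0.40 for complex V and 0.029 for the complex I assembly factors.

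By complex, the share of tested members that rose was 34.9% in complex I, 75.0% in complex II, 40.0% in complex III, 31.3% in complex IV and 47.4% in complex V. The summed FPKM of the nuclear-encoded members did not overlap between the groups in complexes II, IV and V, and neither did their mean log2 level. Their median FPKM was apart only in complex II and overlapped in the other complexes. In complex IV this median averaged 109 FPKM in AL and 104 FPKM in CR livers, and the sums lay close, at up to 1573 FPKM in AL and from 1612 FPKM in CR livers. In complex II the summed FPKM was 389, 359 and 306 in the AL livers, while CR replicates 1 to 4 had 475, 441, 492 and 519. In complex V this sum was 1418, 1341 and 1201 FPKM in AL and 1749, 1713, 1899 and 1918 FPKM in CR livers. The sums of complexes I and III overlapped. For complex III this came from CR replicate 2, and for complex I CR replicates 1 and 2 lay among the AL livers at 1466 and 1409 FPKM, beside 1383 to 1544 FPKM in AL livers and 1901 and 1943 FPKM in CR replicates 3 and 4.

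The 8 complex I assembly factors among the members, which help to build the complex but are not part of it, had 1 gene that rose and a median log2 fold change of 0.029. Ndufaf6 was at 8.10, 7.34 and 7.32 FPKM in AL and 11.3, 11.3, 10.3 and 10.7 FPKM in CR livers. Its groups were apart, with a log2 fold change of 0.52 ± 0.091 (SE) (limma, adjusted p = 0.00772), and it passed in all 7 fits without 1 library. Ndufaf1 was at 15.3, 14.7 and 13.1 FPKM in AL and 12.01, 12.01, 8.67 and 8.95 FPKM in CR livers, lower in each CR liver, with CR replicates 3 and 4 the lowest, and its log2 fold change of -0.48 ± 0.15 (SE) did not pass (limma, adjusted p = 0.0592). It passed only without CR replicates 1 and 2 (limma, adjusted p = 0.0270). Cox7a2l, described as a factor for supercomplexes of complexes III and IV, had a log2 fold change of 0.20 ± 0.14 (SE) (limma, adjusted p = 0.321). Whether it serves this function in the strain used was not examined.

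A set of nuclear-encoded subunits was low mostly in CR replicates 1 and 2, which stood apart from CR replicates 3 and 4 over all genes as well. A chi-square per gene, which grows as the reads of 2 libraries differ, was 16.8 between CR replicates 1 and 2. It was 29.6 between CR replicates 3 and 4, and 39.4 to 65.2 across these pairs. Among the AL livers it was 15.6 between AL replicates 1 and 2. AL replicate 3 stood at 114.2 from AL replicate 1 and at 92.98 from AL replicate 2. AL replicate 3 thus lay farther from the other AL livers than the CR pairs lay from each other. In 18 of the 89 tested nuclear-encoded members at least 2 CR livers lay below every AL liver (20.2%), beside 39.0% of all genes tested. None of the 18 passed the test. The nuclear-encoded members below every AL liver numbered 18, 26, 3 and 3 in CR replicates 1 to 4 (20.2%, 29.2%, 3.37% and 3.37%). Those above every AL liver numbered 52, 47, 76 and 78 (58.4%, 52.8%, 85.4% and 87.6%). Over all genes tested the share below every AL liver was 34.4%, 34.2%, 33.2% and 32.9% in CR replicates 1 to 4, and the share above it was 33.8%, 33.9%, 35.7% and 33.2%.

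Ndufa2, an accessory subunit of complex I, was at 107, 103 and 98.7 FPKM in AL and 53.00, 47.2, 132 and 142 FPKM in CR livers. CR replicates 1 and 2 were about level with each other and far under the AL livers, and CR replicates 3 and 4 lay above them. Ndufa1, another such subunit, encoded on the X chromosome, was at 85.1, 97.8 and 98.9 FPKM in AL and 48.9, 48.4, 99.6 and 117 FPKM in CR livers. Uqcr11, the smallest subunit of complex III, was at 129, 146 and 103 FPKM in AL and 66.2, 57.1, 135 and 161 FPKM in CR livers. The same order was seen in both, with CR replicates 1 and 2 lowest and CR replicate 4 highest. Atp5e was at 58.99, 58.1 and 52.7 FPKM in AL and 33.5, 27.2, 66.3 and 64.8 FPKM in CR livers. Ndufs6, which carries a zinc site in complex I, was at 46.3, 56.2 and 48.8 FPKM in AL and 28.7, 28.8, 52.9 and 62.9 FPKM in CR livers, so that CR replicates 1 and 2 were again the lowest. Uqcrq, Cox5b, Atp5k and Ndufa8 had the same order, with CR replicates 1 and 2 below and CR replicate 4 above the AL livers.

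With all livers the log2 fold changes were -0.32 ± 0.41 (SE) for Ndufa2, -0.37 ± 0.33 (SE) for Ndufa1, -0.39 ± 0.37 (SE) for Uqcr11 and -0.34 ± 0.32 (SE) for Atp5e, where limma gave adjusted p of 0.619, 0.459, 0.49 and 0.483. Without CR replicates 3 and 4 the members that fell were Ndufa1, Ndufa2, Ndufb3, Ndufs6, Uqcr11, Uqcrq and Atp5e, 7 of the 102 tested. In that fit 16 members rose (15.7%), and of all genes tested 8.15% fell and 6.42% rose. The share of members that fell was thus no higher than that of all genes. Without CR replicates 1 and 2, 19 members rose (18.6%) and Ndufaf1 fell, beside 5.16% of all genes that rose and 5.28% that fell. The direction of the 7 members that fell without CR replicates 3 and 4, except Ndufb3, turned with the livers used. That of mt-Nd1, Uqcrc2 and Atp5b did not.

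**Figure D5:**
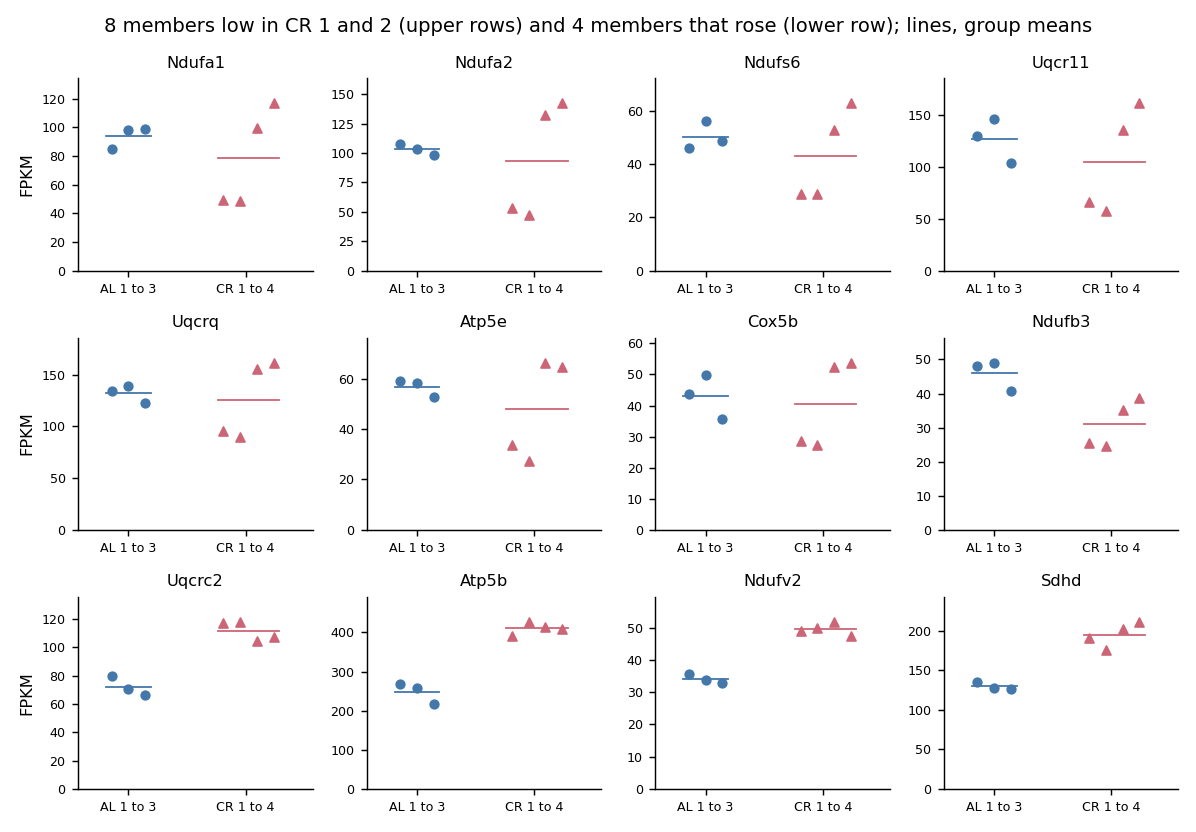
FPKM in each AL liver (circles) and CR liver (triangles, replicates 1 to 4 from left to right) for 8 members that were low in CR replicates 1 and 2 and, in the lowest row, for Uqcrc2, Atp5b, Ndufv2 and Sdhd, with lines at the group means. In the upper rows CR replicates 1 and 2 lie under all AL livers, and in the lowest row all CR livers lie above them.

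The principal transcripts of the 18 members low in at least 2 CR livers were short, with a median of 659 bases over the 17 with a length in GENCODE M21. The median was 1297 bases for the nuclear-encoded members that rose and 683 bases for the remaining ones. Across 84 nuclear-encoded members Spearman's correlation between this length and the log2 difference from the AL mean was 0.39, 0.44, 0.30 and 0.15 in CR replicates 1 to 4. In AL replicates 1 to 3, each set against the mean of the other AL livers, it was 0.49, -0.11 and -0.23. These values describe genes that share their libraries. Over 8316 genes with a length the same correlation was 0.067, 0.045, -0.090 and -0.046 in CR replicates 1 to 4 and -0.0075 in AL replicate 1. With GC content of the transcript the correlation was -0.28, -0.30, -0.050 and -0.010 for the members in CR replicates 1 to 4, and -0.29, -0.22, -0.042 and -0.010 for the 8316 genes. The part of length and GC content in the low values was not tested.

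The promoters of the nuclear-encoded members were read for motifs of factors known for respiratory genes, because many members moved together. RefSeq start sites on GRCm38.p6 gave 250 bases before and 50 bases after the start for 74 of the 89 tested nuclear-encoded genes. On both strands, the NRF1 motif was found in 25.7% of these genes and in 7.17% of 17491 protein-coding genes. The core of ETS factors such as GABP, CCGGAAG, was in 24.3% against 12.9%, that of YY1, AAGATGGCG, in 10.8% against 2.14%, and that of the estrogen-related receptors, TCAAGGTCA, in 2.70% against 0.377%. No match of the ETS core overlapped a YY1 match. Among members that rose, 5 of 22 held the NRF1 motif and 4 of 22 the ETS core, beside 14 of 52 and 14 of 52 of those that did not pass. The 250 bases before the start are shown for 3 genes that hold both motifs, Sdhd and Atp5h, which rose, and Cox6a1, which did not pass. Atp5k, which did not pass either, also holds both motifs, and its sequence is not shown. The stretches shown run 5′ to 3′ on the strand of the gene, here the minus strand, and capitals mark the NRF1 and ETS matches.
Sdhd, chr9:50603850-50604099: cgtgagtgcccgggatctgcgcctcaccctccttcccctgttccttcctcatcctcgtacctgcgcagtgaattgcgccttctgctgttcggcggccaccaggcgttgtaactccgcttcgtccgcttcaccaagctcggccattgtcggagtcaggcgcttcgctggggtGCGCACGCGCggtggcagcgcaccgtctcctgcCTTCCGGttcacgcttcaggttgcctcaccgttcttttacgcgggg
Atp5h, chr11:115419920-115420169: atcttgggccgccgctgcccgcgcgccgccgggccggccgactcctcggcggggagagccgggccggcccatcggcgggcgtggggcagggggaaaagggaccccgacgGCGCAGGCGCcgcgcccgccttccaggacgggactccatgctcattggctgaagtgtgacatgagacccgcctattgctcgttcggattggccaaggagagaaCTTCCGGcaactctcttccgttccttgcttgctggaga
Cox6a1, chr5:115348959-115349208: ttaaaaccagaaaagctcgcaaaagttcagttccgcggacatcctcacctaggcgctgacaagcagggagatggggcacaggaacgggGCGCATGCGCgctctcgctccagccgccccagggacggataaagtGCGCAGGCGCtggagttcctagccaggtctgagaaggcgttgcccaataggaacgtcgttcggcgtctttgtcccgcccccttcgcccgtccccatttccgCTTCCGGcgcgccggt
In Sdhd and Atp5h the NRF1 match lies farther from the start than the ETS match, and Cox6a1 holds 2 NRF1 matches and an ETS match near the start. Sdhd also holds a match of the estrogen-related receptor motif, which lies outside the stretch shown. A match is a run of letters and not a measured site.

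Other mitochondrial genes were read from lists chosen with earlier results of these data known. Of 23 genes of mitochondrial mass and membrane transport 9 rose and 0 fell, with a median log2 fold change of 0.32. Of all genes tested 11.3% rose and 10.2% fell. On this list Slc25a5, an exchanger of ADP and ATP, was at 173 to 212 FPKM in AL livers and 329 to 381 FPKM in CR livers (log2 fold change 0.84 ± 0.12 (SE), limma adjusted p = 0.00304). Cisd1, an iron-sulfur protein of the outer membrane, was at 79.5 to 98.5 FPKM in AL livers and 164 to 182 FPKM in CR livers (0.97 ± 0.11 (SE), limma adjusted p = 0.00119), and the outer membrane channels Vdac1 and Vdac2 rose by 0.63 ± 0.091 (SE) and 0.70 ± 0.10 (SE) (limma, adjusted p = 0.00355 and 0.00315). Both mitochondrial ribosomal RNAs rose, mt-Rnr1 by 0.88 ± 0.18 (SE) and mt-Rnr2 by 1.13 ± 0.16 (SE) (limma, adjusted p = 0.0132 and 0.0031). Unlike mt-Nd1 and mt-Co1 they were highest in CR replicate 3, mt-Rnr2 at 588, 602, 735 and 611 FPKM in CR replicates 1 to 4. RNA was selected on poly-T beads, and for these ribosomal RNAs capture and amount cannot be told apart.

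The counts of the lists that follow stand beside 11.3% of all genes tested that rose and 10.2% that fell. Of 9 tested genes for other routes of electron entry and for uncoupling 3 rose, Sqor, sulfide quinone oxidoreductase, by 0.91 ± 0.10 (SE), Prodh, proline dehydrogenase, by 0.93 ± 0.14 (SE) and Etfa, the electron transfer flavoprotein of fatty acid oxidation, by 0.55 ± 0.14 (SE) (limma, adjusted p = 0.00113, 0.0046 and 0.0318). Of 17 tested regulators of respiratory genes 2 rose, the coactivator Ppargc1a, at 0.75 to 1.04 FPKM in AL livers and 4.41 to 6.94 FPKM in CR livers (log2 fold change 2.40 ± 0.19 (SE), limma adjusted p = 0.000215), and the low receptor Esrrg, by 1.86 ± 0.44 (SE) (limma, adjusted p = 0.0234). Nrf1 had a log2 fold change of 0.026 ± 0.20 (SE) and Esrra of 0.64 ± 0.31 (SE), and neither passed. Of 34 tested genes of mitochondrial transcription and RNA handling 4 rose and 1 fell, with a median of 0.017, and Tfam, which packs and transcribes the mitochondrial DNA, did not pass (0.37 ± 0.15 (SE), limma adjusted p = 0.11). Grsf1, which binds mitochondrial RNA, rose by 0.70 ± 0.089 (SE) (limma, adjusted p = 0.0023), as did Fastkd1, Angel2 and Polg2, and Polg, the mitochondrial DNA polymerase, fell, with a log2 fold change of -0.49 ± 0.14 (SE) (limma, adjusted p = 0.043).

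Assembly factors of the complexes that are not members went both ways, with 6 that rose and 3 that fell of 44 tested and a median of -0.14, where 11.3% of all genes rose and 10.2% fell. The factors that rose were Nubpl, Dmac2 and Ecsit of complex I, and Cox10, Coa6 and Cmc1 of complex IV, led by Nubpl at 0.77 ± 0.13 (SE) (limma, adjusted p = 0.00592). Cox10, which makes heme for complex IV, was at 4.31 to 4.79 FPKM in AL livers and 5.72 to 7.54 FPKM in CR livers. Those that fell were Dmac1, Cox19 and Higd1a. Dmac1 was at 57.6, 32.3 and 32.5 FPKM in AL and 20.7, 18.5, 19.1 and 20.7 FPKM in CR livers. AL replicate 1 was far above the other AL livers, and all CR livers lay below them (log2 fold change -0.99 ± 0.20 (SE), limma adjusted p = 0.0141).

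Some members share sequence or position with other genes, and their values are uncertain to that extent. Among tested nuclear-encoded members the share of 100-base words found in other genes was highest in the assembly factor Ndufaf2, at 62.4%. It was 34.7% in Atp5g2, with the pseudogene Gm10175, 27.9% in Atp5o, 22.6% in Cycs, with Gm10053 and others, 16.2% in Cox7c and 16.0% in Ndufb4, with Ndufb4c. Ndufb6, at 23.98%, and Ndufa13, at 23.96%, each shared with a gene on the opposite strand. Among the members whose calls held best it was 15.5% in Uqcrc2, all with Pdzd9 on the opposite strand, which had a mean of 0.146 FPKM, and 11.5% in Atp5h, with the pseudogene Gm10250. Strand was not stated for the counting in the sources used here, so that opposite genes such as Atp5j and Gabpa, which overlap over 701 bases, cannot be told apart there.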

How the data were processed

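Liver mRNA of 3 AL and 4 CR mice was sequenced in paired-end reads, 1 library per mouse. The authors deposited FPKM for 54532 genes, made, by the submitters' processing notes, with featureCounts 1.5.0-p3 after HISAT2 2.0.5 (CASAVA 2.19 is also listed) on GRCm38. The deposited gene length gave FPKM times length as whole multiples of a single step (all within 0.01 reads), taken as reads, which puts a single read over 2 kb at 0.025 to 0.032 FPKM. The steps followed median-ratio size factors of the reads rather than library totals.

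Because FPKM are not counts, log2(FPKM + 0.1) was tested with limma 3.58.1 (trend, robust, statmod 1.5.0, R 4.3.3) over the 12699 genes that reached 0.5 FPKM in 3 or more libraries, as a two-sided test adjusted across them by Benjamini-Hochberg. The pseudocount understates changes of low genes. No per-sample column was left unused (0). Members went to complexes by symbol, with Ndufa4 and Ndufa4l2 in complex IV. Members and lists were chosen with earlier results of these data known. Named genes were all mitochondrially encoded members, all that passed (1 is not reported here by name), the extremes and the most abundant member of each complex, the isoform pairs and at most 4 genes past the test per list, and further members that did not pass, further assembly factors, Polg2, Nrf1, Tfam and Esrra were added after their values were seen. Shared sequence was counted on GENCODE M21 transcripts, and plots were made in matplotlib 3.10.9 (Python 3.11.15). Alternatives covered pseudocount, filter, scaling, variance model, limma-voom on the recovered reads, replicate block and left-out libraries.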

Additional observations from a re-analysis of the deposited data

Results flagged for a closer look

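In the CR group of 4, the highest or lowest library of 102 members was compared with its nearest neighbour, and 2 members stood out by Dixon's criterion, where chance gives about 1 in 20. mt-Nd4l was highest in CR replicate 4 at 246.9 FPKM, with the next library at 75.5 FPKM, and the gap was 0.879 of the range. Atp5g1 was lowest in CR replicate 3 at 23.95 FPKM, with the next at 25.6 FPKM, a gap of 0.848 of the range that still left it above all AL livers. The AL group of 3 was not examined in this way.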

How the results depend on the processing

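The 37 members that rose became 22 with no filter, 19 without CR replicates 1 and 2, 16 without CR replicates 3 and 4, and 12 to 26 with 1 library left out. The members that fell, 0 with all livers, numbered 1 when every library had to reach 1 FPKM and 1 with limma-voom on recovered reads (Ndufb3 in both), 1 without CR replicates 1 and 2, 7 without CR replicates 3 and 4, and 0 to 1 with 1 library left out. With the other filters, pseudocounts, scalings and variance models 31 to 45 members rose. Over all genes 627 rose and 642 fell without CR replicates 1 and 2, and 782 rose and 992 fell without CR replicates 3 and 4. With 1 library left out, 669 to 1514 rose and 540 to 1149 fell. The replicate numbers were not taken to pair the livers, since the labels give no pairing. Deviations of same-numbered livers correlated at 0.031, -0.044 and -0.057, within the range of the other pairs, -0.077 to 0.095. Such values cannot show that no batch was shared. With the replicate number as a block, which leaves CR replicate 4 without a partner, 482 genes rose and 508 fell, and 5 members rose.

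Without CR replicates 3 and 4 the median log2 fold change of the nuclear-encoded members and of complex I was 0.16 each. The difference between the medians of mitochondrially encoded and nuclear-encoded members, 0.18, was 0.13 to 0.41 with 1 library left out, the highest without CR replicate 3.

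Genes that did not pass changed sign. Without CR replicates 1 and 2 the log2 fold change was 0.21 for Atp5e, 0.17 for Atp5k, 0.32 for Cox5b, 0.0029 for Cox7a2, 0.20 for Ndufa1, 0.023 for Ndufa13, 0.41 for Ndufa2, 0.24 for Ndufa8, 0.20 for Ndufs6, 0.24 for Uqcr11, 0.27 for Uqcrq and 0.38 for mt-Atp8. Without CR replicates 3 and 4 it was -0.043 for Atp5g3 and -0.056 for mt-Nd4l. With scaling that leaves out mitochondrial genes it was 0.030 for Ndufa8, and this scaling moved the median of all genes to 0.094. With the replicate block it was -0.0040 for mt-Co3 and -0.19 for mt-Nd4l. With 1 library left out it ranged over -0.31 to 0.018 for Cox5b, -0.49 to 0.19 for Ndufa4l2, -0.18 to 0.038 for Ndufa8, -0.26 to 0.023 for Uqcrq, -0.52 to 0.27 for mt-Atp8, -0.11 to 0.61 for mt-Co3 and -0.19 to 0.56 for mt-Nd4l. The causes were not tested. Depth limits mt-Atp8 and the isoforms under the filter, which had few reads. Cox7a1, which rose, is a short gene at 0.574 to 2.99 FPKM and is limited by depth as well.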
